A study of Homo sapiens with 6 samples.

Results

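The axon guidance ligands and receptors were taken as the genes whose symbols place them among the semaphorins of classes 3 to 7, the plexins, the ephrins, the Eph receptors, the Slits, the Robos, the netrins and the netrin receptors (DCC, NEO1 and UNC5A to UNC5D), with protein-coding genes only. This gave 68 of the 40488 genes in the deposited table, namely 20 semaphorins, 9 plexins, 8 ephrins, 14 Eph receptors, 3 Slits, 4 Robos, 4 netrins and 6 netrin receptors. They were measured by RNA-seq in SCC90, an established HPV16-positive cell line from a squamous carcinoma of the base of the tongue. Of 6 libraries, 3 came from cells that received a scrambled siRNA (siCTRL) and 3 from cells that received an siRNA against ΔNp63 (siDNp63), a p63 isoform of squamous epithelium. The siRNAs were transfected with Lipofectamine RNAiMAX, and RNA was extracted 72 h later. The labels give 10 nM of siRNA, whereas the study's methods give a higher concentration. The comparison asks which guidance genes changed when ΔNp63 was silenced in this 1 cell line.

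Guidance cues were first described in the growing nervous system, where they steer axons by attraction or repulsion, and the same families act on cell adhesion, migration and vessel growth in other tissues, epithelia included. Semaphorins are secreted or membrane-bound ligands that signal through plexins, and most class 3 semaphorins also need a neuropilin as co-receptor. Ephrins and Eph receptor tyrosine kinases both sit on the cell surface and signal between touching cells, often in both directions. Slits are secreted ligands of Robo receptors, and netrins are secreted, laminin-related ligands of DCC, neogenin (NEO1) and the UNC5 receptors.

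Expected counts summed to between 35716277 and 52598831 per library. TP63 fell from 43408 ± 976 to 15136 ± 576 normalized counts (mean ± SD, n = 3 each, TMM-scaled between libraries), a log2 fold change (siDNp63 over siCTRL) of −1.52, and this count adds up the TA and ΔN transcripts. No source says that the replicates were separate cultures, so the p-values reflect no more than the spread from library to library, possibly technical. The siDNp63 replicate 1 library stood apart on the second principal component (−39.1, against 25.6 and 24.8 for siDNp63 replicates 2 and 3). In it 36 of the 57 guidance genes tested lay below the mean of the other siDNp63 libraries, as did 7632 of all 17257 genes tested. The median difference was −0.14 on the log2 scale for the guidance genes and 0.03 over all genes tested. All 7 squamous epithelial markers examined were detected, with KRT6A at 3071 TPM (a level per transcript length) in siCTRL, but the basal keratins KRT5 and KRT14 were at only 7.08 and 0.524 TPM. Summed over 7 markers of neurons and glia, the level was 2.36 to 2.70 TPM in siCTRL and 1.13 to 2.22 TPM in siDNp63, and 6 of the 7 were under 1 TPM in every library.

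After ΔNp63 silencing the guidance genes moved in both directions. Of the 57 members with enough counts to be tested, 19 were higher and 13 were lower in siDNp63 at an adjusted p under 0.05 (quasi-likelihood test of edgeR, adjusted over all genes tested by the Benjamini-Hochberg method), where 18.4% of all tested genes were higher and 15.2% lower. The members called made up 56.1% of those tested, beside 33.6% of all genes. With the further condition of an absolute log2 fold change over 1, 7 members were higher (PLXNA4, UNC5C, SEMA5B, SLIT2, EFNB2, EPHA4 and EPHB2) and 4 were lower (ROBO2, SEMA6D, EPHB6 and SEMA4F), where 2.35% and 1.71% of all genes passed. The median log2 fold change of the members was 0.03 and that of all genes was −0.02. Libraries of siCTRL and siDNp63 did not overlap in value for 35 of the 57 members (61.4%, and 49.4% of all genes), and every member called was among these 35. Scaling by library totals alone, in place of TMM, turned the split from 19 higher and 13 lower to 13 higher and 18 lower, and it moved the median of all genes to −0.11. Leaving out siCTRL replicate 1, 2 or 3 or siDNp63 replicate 3 left 10, 9, 12 or 10 members higher and 10, 10, 11 or 12 lower. Without siDNp63 replicate 1, the library that stood apart, 19 were higher and 15 lower. In bulk RNA, fewer cells that express a gene and less of its RNA per cell cannot be told apart.

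**Figure D1:**
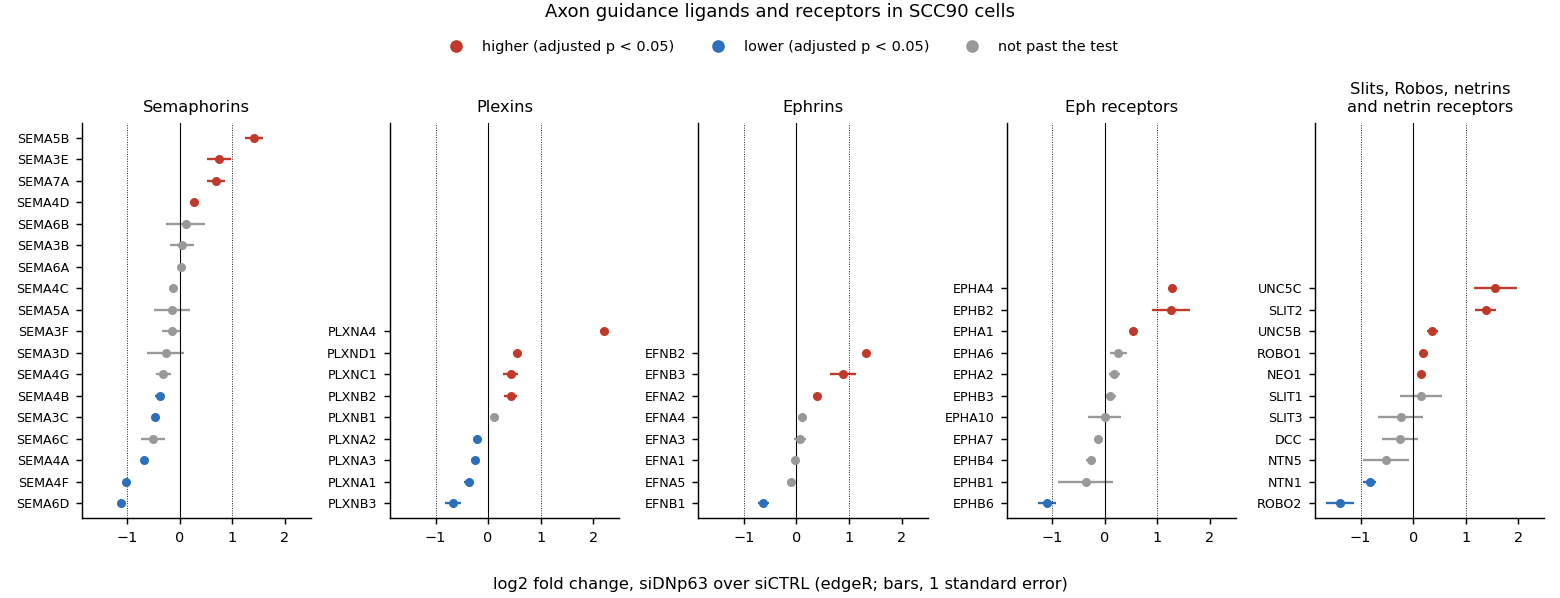
Log2 fold change of the 57 tested guidance genes in 5 panels, siDNp63 over siCTRL, with bars of 1 standard error; red and blue points passed an adjusted p under 0.05 and dotted lines mark an absolute value of 1. The last panel holds the Slits, the Robos, the netrins and the netrin receptors together. PLXNA4 (2.21) is farthest to the right and ROBO2 (−1.40) farthest to the left.

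Of the 11 members that were not tested, none exceeded 14.0 expected counts in any library. They were SEMA3A, SEMA3G, EPHA3, EPHA5, EPHA8, ROBO3, ROBO4, NTN3, NTN4, UNC5A and UNC5D. ROBO4, the Robo of vascular endothelium, had 0 counts in all 6 libraries, which allows up to 0.0114 CPM over the 6 libraries summed (3 counts scaled to library size, for counting error only). The low-count filter was passed in all 6 libraries by 51 members and in fewer by 6. EPHB2 and UNC5C passed it through the siDNp63 libraries, in which they are high, so they entered the test through the group with the higher values. SEMA6B passed it in 2 libraries of each group, and EPHB1, SLIT3 and NTN5, none of them called, passed it in more siCTRL than siDNp63 libraries.

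The most abundant guidance receptors of these cells were a plexin, a netrin receptor and a pair of Eph receptors. In siCTRL, 39 of the 68 members were above 1 TPM in all 3 libraries and 26 were above 10 TPM, while 22 stayed under 1 TPM in all 6 libraries. PLXNB2, a receptor of class 4 semaphorins, was the highest, at 258 ± 15.1 TPM in siCTRL and 346 ± 52.7 TPM in siDNp63. It was followed by NEO1 (159 ± 4.21 and 170.0 ± 9.63 TPM), the ephrin EFNA1 (94.1 ± 2.43 and 87.1 ± 0.698 TPM), EPHB4 (73.1 ± 3.75 and 57.1 ± 11.4 TPM) and EPHB3 (58.3 ± 4.10 and 64.3 ± 11 TPM). EPHB4 and EPHB3 lay closer to each other in siDNp63 than their spread. The summed level of the semaphorins was 222 ± 7.73 TPM in siCTRL and 163 ± 10.1 TPM in siDNp63, and the libraries of the groups did not overlap. The plexins together stood at 472 ± 15.4 and 554 ± 53.5 TPM and the ephrins at 206 ± 7.36 and 234 ± 7.44 TPM, without overlap in either case. Neither sum rose by more than 1 member alone, PLXNB2 (258 to 346 TPM) or EFNB2 (26.0 to 61.8 TPM). For the Eph receptors the sums were 213 ± 7.31 and 219.9 ± 17.2 TPM, which overlapped. These sums were not tested.

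**Figure D2:**
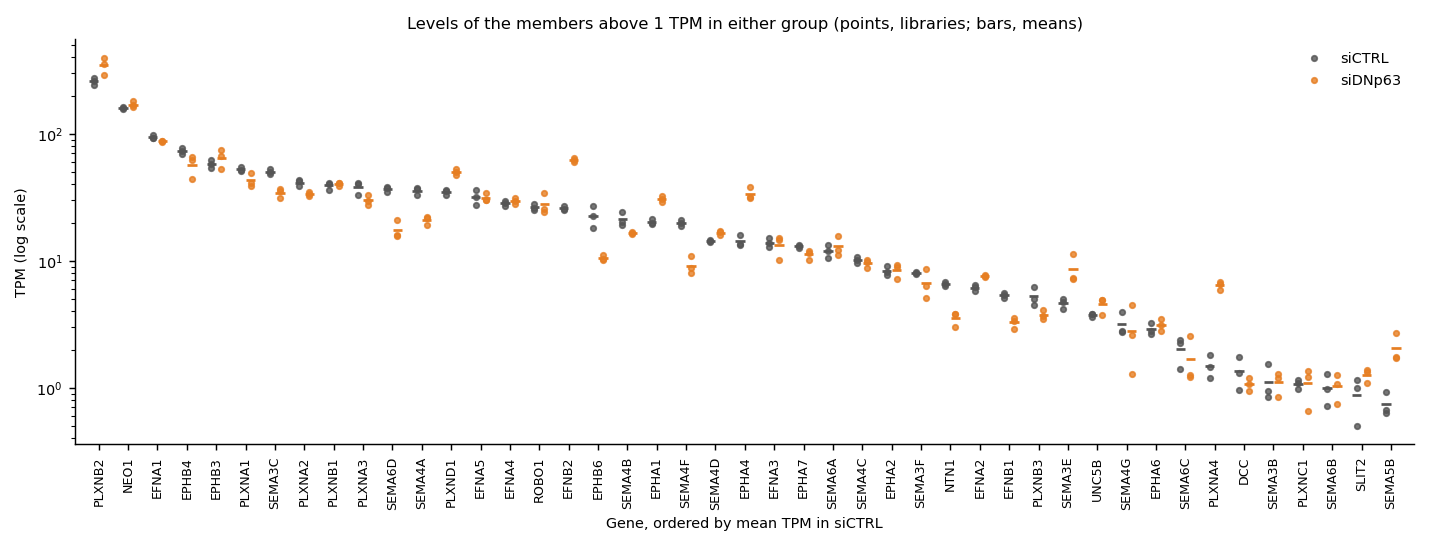
Level in TPM (log scale) of the guidance genes whose mean was above 1 TPM in either group, ordered by the siCTRL mean; points are libraries (3 per group) and bars are means. EFNB2, EPHA4 and PLXND1 stand clearly above their siCTRL points and SEMA6D, SEMA4A, SEMA4F and EPHB6 below theirs, while PLXNB2 at 258 and 346 TPM tops both groups.

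Promoter sequences are shown for the members past both thresholds whose call held in every alternative run and that have a single start in the RefSeq table, so that their upstream sequence can be set beside their change. PLXNA4 and EFNB2 rose and SEMA4F and EPHB6 fell. Each is the 250 bases before the RefSeq transcription start (GRCh38.p14), 5′ to 3′ on the gene's strand, and capitals mark matches on either strand to the TATA box (TATAAA), to the CAAT box (CCAAT), to the GC box (GGGCGG) or to the E box (CAGGTG). They lie at chr7:132576471-132576720 (minus strand) for PLXNA4, chr13:106535663-106535912 (minus) for EFNB2, chr2:74653997-74654246 (plus) for SEMA4F and chr7:142862506-142862755 (plus) for EPHB6.
PLXNA4: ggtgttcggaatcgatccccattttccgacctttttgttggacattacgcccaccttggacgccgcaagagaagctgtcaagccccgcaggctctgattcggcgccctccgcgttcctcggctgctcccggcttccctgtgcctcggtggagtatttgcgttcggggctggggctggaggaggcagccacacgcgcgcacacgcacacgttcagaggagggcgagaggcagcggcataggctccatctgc
EFNB2: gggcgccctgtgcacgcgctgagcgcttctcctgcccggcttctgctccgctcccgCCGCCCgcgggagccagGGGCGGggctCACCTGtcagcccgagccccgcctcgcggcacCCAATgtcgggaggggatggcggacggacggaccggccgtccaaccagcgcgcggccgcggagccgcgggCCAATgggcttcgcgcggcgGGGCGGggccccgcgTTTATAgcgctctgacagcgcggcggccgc
SEMA4F: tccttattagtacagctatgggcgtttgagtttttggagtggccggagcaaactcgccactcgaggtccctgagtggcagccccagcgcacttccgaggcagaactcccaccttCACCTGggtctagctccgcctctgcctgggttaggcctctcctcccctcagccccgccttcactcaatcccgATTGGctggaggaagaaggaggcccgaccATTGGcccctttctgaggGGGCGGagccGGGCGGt
EPHB6: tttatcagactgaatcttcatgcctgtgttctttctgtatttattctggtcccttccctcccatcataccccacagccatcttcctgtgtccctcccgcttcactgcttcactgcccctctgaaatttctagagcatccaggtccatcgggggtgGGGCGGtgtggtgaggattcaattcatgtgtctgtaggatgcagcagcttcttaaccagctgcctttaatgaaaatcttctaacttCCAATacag
The EFNB2 window held 1 TATA box, 2 CAAT boxes, 3 GC boxes and 1 E box, and 78.4% of its bases were G or C. The SEMA4F window held 2 CAAT boxes, 2 GC boxes and 1 E box, and that of EPHB6 held 1 CAAT box and 1 GC box, with no overlap between matches. The PLXNA4 window held no match. Of all 35116 windows of this length, 10.7% held a TATA box, 32.0% a CAAT box, 42.6% a GC box and 17.5% an E box. The starts of PLXNA4, EPHB6 and SEMA4F used here lie inside the gene spans of the GENCODE annotation, which begin farther upstream. For SEMA4F the span begins at 74654228, within the window shown. Over the 59 members with a RefSeq window, the median GC share of the windows was 65.2%, and it was 58.0% over all windows. Matches are descriptions of these letters and not evidence of binding.

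Among the semaphorins, the ligands of the plexins, 4 of 18 tested were higher and 5 were lower in siDNp63. These are 22.2% and 27.8%, beside 18.4% and 15.2% of all genes, so the share higher was near that of all genes. SEMA6D, a transmembrane semaphorin that binds plexin A1 (chromosome 15, 47184101 to 47774228 of GRCh38), had 5123, 5521 and 5322 normalized counts in siCTRL and 2585, 2379.7 and 2392 in siDNp63. Every siDNp63 library lay below every siCTRL library, and the gap was wider than the range within either group. It fell with a log2 fold change of −1.12 (SE 0.05, edgeR adjusted p = 4.22e-06). SEMA4F, a transmembrane class 4 semaphorin found at synapses (chromosome 2, 74654228 to 74683853), had 1985, 1971 and 1925 normalized counts in siCTRL and 889, 991 and 1004 in siDNp63. Its groups were also far apart, with a log2 fold change of −1.03 (SE 0.06, edgeR adjusted p = 1.14e-05). SEMA4A, a class 4 semaphorin known from immune cells and the retina, was at 2463, 2416 and 2292 and then at 1358, 1547 and 1573 normalized counts. This was a smaller fall, of 0.68 on the log2 scale (SE 0.06, edgeR adjusted p = 0.000156). SEMA3C, a secreted semaphorin and the most abundant of the family in siCTRL (50.1 ± 2.28 TPM), fell by 0.48 (edgeR adjusted p = 0.000347). SEMA4B fell by 0.38 (edgeR adjusted p = 0.0124), a call that ended without siCTRL replicate 1, 2 or 3 (adjusted p = 0.0592, 0.062 and 0.0505).

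The semaphorins that rose were expressed at low levels, apart from SEMA4D. SEMA5B, a transmembrane semaphorin with thrombospondin repeats (chromosome 3, 122909082 to 123028605), had 44.2, 38.5 and 52.9 normalized counts in siCTRL and 131, 121 and 112 in siDNp63. Its log2 fold change was 1.42 (SE 0.17, edgeR adjusted p = 0.000544). The level per length stayed low, at 0.745 ± 0.159 TPM in siCTRL and 2.06 ± 0.572 TPM in siDNp63. SEMA3E, a secreted ligand of plexin D1 that acts without a neuropilin, had 26.9, 32.2 and 23.7 normalized counts and then 55.0, 41.1 and 43.9. The groups did not overlap, but with a log2 fold change of 0.75 (SE 0.23, edgeR adjusted p = 0.0376) the call ended without any 1 of the 6 libraries, at adjusted p-values from 0.0531 to 0.12. SEMA3E had 5.99 counts for each TPM in siCTRL, against a median of 77.9 over the members tested, so its level of 4.61 TPM rests on few reads.

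SEMA7A, a glycolipid-anchored semaphorin that binds integrin β1 and plexin C1, had 47.7, 41.6 and 43.9 normalized counts in siCTRL and 66.5, 67.6 and 80.1 in siDNp63. It was higher in each siDNp63 library (log2 fold change 0.68, SE 0.17, edgeR adjusted p = 0.0178). The call ended without siCTRL replicate 2 (0.0684), siCTRL replicate 3 (0.0618) or siDNp63 replicate 3 (0.0677), all adjusted p-values. A second identifier in the table, without a gene name, has the same values as SEMA7A in all 6 libraries, so its level is uncertain. SEMA4D, a ligand of plexin B1 known from T cells, rose by 0.28 on the log2 scale (edgeR adjusted p = 0.00908), at 14.4 ± 0.282 TPM in siCTRL and 16.6 ± 0.616 TPM in siDNp63, and its call ended without siCTRL replicate 1 (adjusted p = 0.0617). The 9 tested semaphorins that did not pass had log2 fold changes from −0.50 (SEMA6C) to 0.11 (SEMA6B), with SEMA3B, SEMA3D, SEMA3F, SEMA4C, SEMA4G, SEMA5A and SEMA6A in between. Of these, SEMA6A (11.9 ± 1.32 TPM in siCTRL) and SEMA4C (10.2 ± 0.571 TPM) were the most abundant.

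The plexins, the receptors of the semaphorins, had 4 genes higher and 4 lower of 9 tested (88.9% called, and 33.6% of all genes). PLXNA4, a receptor of class 6 and, with neuropilins, of class 3 semaphorins (chromosome 7, 132123340 to 132648688), had 296, 252 and 257 normalized counts in siCTRL and 1269.6, 1184 and 1285 in siDNp63. It was 4.65-fold higher and showed the largest change of all members (log2 fold change 2.21, SE 0.08, edgeR adjusted p = 2.58e-06). Its level rose from 1.49 ± 0.300 to 6.42 ± 0.517 TPM. PLXND1, the receptor of SEMA3E and known from blood vessels, had 1344, 1349.9 and 1391 normalized counts in siCTRL and 1765, 2114 and 2118 in siDNp63. It rose in every siDNp63 library, with a log2 fold change of 0.56 (SE 0.07, edgeR adjusted p = 0.000896). PLXNB3, a receptor of SEMA5A, had 177, 185 and 201 normalized counts and then 96.0, 122 and 134. It fell by 0.67 on the log2 scale (SE 0.15, edgeR adjusted p = 0.00989). With the transcript lengths taken into account its log2 fold change was −0.42 and the call ended (adjusted p = 0.114).

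PLXNB2 rose by 0.43 on the log2 scale (edgeR adjusted p = 0.0333), from 13811, 12992 and 12731 normalized counts in siCTRL to 13813, 19872 and 19431 in siDNp63. The groups were only just apart, since siDNp63 replicate 1 exceeded the highest siCTRL library (13810.5) at 13812.8 normalized counts. The call ended without siCTRL replicate 1, 2 or 3 (adjusted p = 0.0912, 0.122 and 0.131) and without siDNp63 replicate 2 or 3 (0.0963 and 0.113). PLXNC1, a receptor of SEMA7A, rose by 0.43 in counts (edgeR adjusted p = 0.0428) but stood at 1.07 ± 0.0908 and 1.08 ± 0.370 TPM, its log2 fold change on log2(TPM + 0.1) was −0.0395, and its call ended without any 1 of siCTRL replicates 1, 2 and 3 and siDNp63 replicates 1 and 3 (adjusted p = 0.077, 0.0796, 0.129, 0.0566 and 0.126). The A-type plexins other than PLXNA4, which pair with neuropilins, went the other way. PLXNA1 fell by 0.37, PLXNA2 by 0.21 and PLXNA3 by 0.25 on the log2 scale (edgeR adjusted p = 0.0236, 0.00571 and 0.0393). For PLXNA1 the call ended without siCTRL replicate 1, 2 or 3 (adjusted p = 0.101, 0.0907 and 0.0672), and for PLXNA3 without siCTRL replicate 1 or 2 or siDNp63 replicate 1 or 3 (0.109, 0.151, 0.0677 and 0.108). PLXNB1, the receptor of SEMA4D, did not pass (log2 fold change 0.12, edgeR adjusted p = 0.229), but it did without siDNp63 replicate 1 (0.20, adjusted p = 0.00558).

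**Figure D3:**
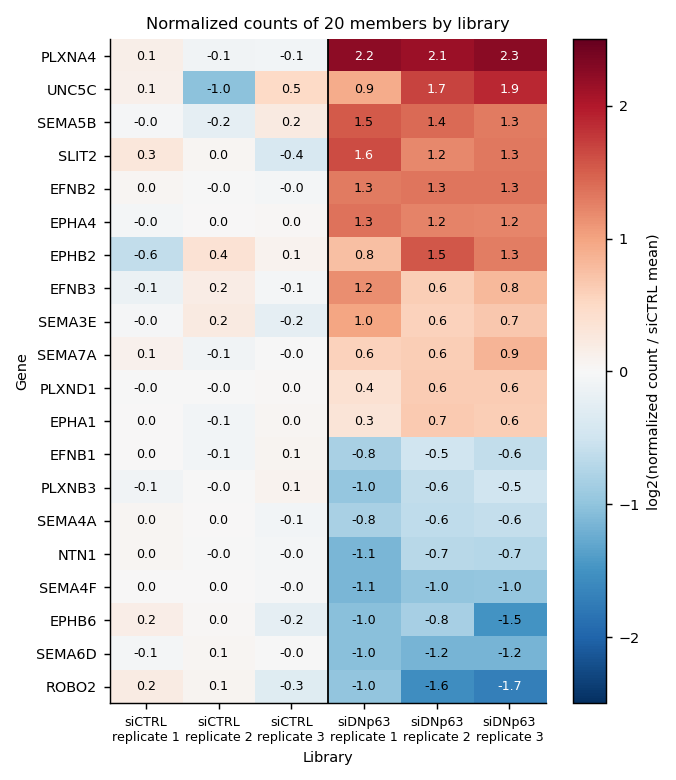
Normalized counts of the 20 guidance genes past an adjusted p under 0.05 and an absolute log2 fold change over 0.5, as the log2 ratio of each library to the siCTRL mean, with 3 siCTRL columns at left and 3 siDNp63 columns at right. In every row the 3 siDNp63 values lie on one side of the 3 siCTRL values, with PLXNA4 at the top and ROBO2 at the bottom.

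Of the 8 ephrins, the ligands of Eph receptors, 3 were higher and 1 was lower, where 33.6% of all genes were called. The 3 transmembrane B-type genes were among these 4, EFNB2 and EFNB3 upward and EFNB1 downward. The EFNB3 call ended in 11 of 17 alternatives. EFNB2, the ephrin of arterial endothelium and a ligand of EPHB4 and EPHA4 (chromosome 13, 106489745 to 106535662), had 3151, 3044 and 2961 normalized counts in siCTRL and 7516, 7701 and 7687 in siDNp63. The groups were far apart, with a log2 fold change of 1.32 (SE 0.04, edgeR adjusted p = 1.27e-06), and among the 68 members EFNB2 went from rank 17 to rank 5 by TPM (26.0 ± 0.814 to 61.8 ± 2.17 TPM). EFNB1 had 479, 452 and 501 normalized counts in siCTRL and 273, 338 and 311 in siDNp63. It fell by 0.63 on the log2 scale (SE 0.10, edgeR adjusted p = 0.00216). EFNB3 had 19.1, 23.9 and 20.3 normalized counts and then 47.4, 32.5 and 37.2. Its log2 fold change was 0.88 (SE 0.25, edgeR adjusted p = 0.0277) at a level under 1 TPM, and the call ended without siCTRL replicate 1, 2 or 3 (adjusted p = 0.0935, 0.0544 and 0.085) or siDNp63 replicate 1 or 3 (0.0569 and 0.0669).

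The glycolipid-anchored A-type ephrins changed little. EFNA2 rose by 0.38 on the log2 scale (edgeR adjusted p = 0.00669), at 6.13 ± 0.345 TPM in siCTRL and 7.59 ± 0.160 TPM in siDNp63. EFNA1, EFNA3, EFNA4 and EFNA5 had log2 fold changes of −0.03, 0.06, 0.11 and −0.11 and did not pass. They are not minor members, since EFNA1 came after PLXNB2 and NEO1 alone by TPM in siCTRL and EFNA5 and EFNA4 stood at 31.9 ± 4.42 and 28.5 ± 1.31 TPM. EFNA5 passed without siDNp63 replicate 1 (log2 fold change −0.17, edgeR adjusted p = 0.0283).

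Of the 11 tested Eph receptors, 3 were higher and 1 was lower. The share called, 36.4%, was near the 33.6% of all genes. EPHA4, which binds ephrins of both types (chromosome 2, 221418027 to 221574202), had 1668, 1725 and 1753 normalized counts in siCTRL and 4368, 4056 and 4013 in siDNp63. It rose 2.42-fold (log2 fold change 1.27, SE 0.05, edgeR adjusted p = 2.33e-06), from 14.3 ± 1.48 to 33.6 ± 3.62 TPM. EPHB6, an Eph receptor without kinase activity (chromosome 7, 142855061 to 142871094), had 751, 687 and 579 normalized counts and then 326, 380.1 and 238. Its log2 fold change was −1.09 (SE 0.17, edgeR adjusted p = 0.00209), with a wider spread within each group than that of EPHA4. EPHA1, an Eph receptor of epithelia, had 928, 884 and 949.7 normalized counts in siCTRL and 1147, 1454 and 1415 in siDNp63. It rose by 0.54 on the log2 scale (SE 0.09, edgeR adjusted p = 0.00292), and as for SEMA7A an unnamed second identifier carries the same values, so the level of EPHA1 is uncertain.

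EPHB2, a receptor of B-type ephrins, had 6.94, 13.5 and 11.3 normalized counts in siCTRL and 17.9, 30.8 and 25.7 in siDNp63. These are few counts, and the log2 fold change of 1.26 (SE 0.35, edgeR adjusted p = 0.0277) lost its call without siCTRL replicate 1, 2 or 3 (adjusted p = 0.105, 0.051 and 0.0835) or siDNp63 replicate 2 or 3 (0.102 and 0.0809). EPHB4, the receptor of EFNB2 and the most abundant Eph receptor in siCTRL, had 4998, 5173 and 4954 normalized counts in siCTRL and 3523, 4658 and 4328 in siDNp63. All its siDNp63 values lay below the siCTRL values, but it narrowly missed the threshold (log2 fold change −0.27, SE 0.09, edgeR adjusted p = 0.0545), which it passed without siDNp63 replicate 1 (−0.16, adjusted p = 0.0194) and without siDNp63 replicate 2 (−0.36, adjusted p = 0.0184). EPHB4 also passed, as lower, with DESeq2 (−0.27, adjusted p = 0.0135), with edgeR on library totals alone (−0.36, adjusted p = 0.0242) and with the replicate block (−0.28, adjusted p = 0.0352). EPHA2, EPHA6, EPHA7, EPHA10, EPHB1 and EPHB3 had log2 fold changes from −0.36 (EPHB1) to 0.26 (EPHA6) and did not pass. Without siDNp63 replicate 1, EPHB3 (0.23, edgeR adjusted p = 0.00224), EPHA2 (0.28, 0.00755) and EPHA7 (−0.18, 0.02) did.

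Of the Slits and their receptors, SLIT2 and ROBO1 were higher and ROBO2 was lower. SLIT2, a secreted ligand of ROBO1 and ROBO2 (chromosome 4, 20251905 to 20620561), had 86.8, 73.8 and 54.1 normalized counts in siCTRL and 220.1, 164 and 177 in siDNp63. In counts it was 2.62-fold higher (log2 fold change 1.38, SE 0.20, edgeR adjusted p = 0.0014). In TPM, which divides by the length of the transcripts that the reads were assigned to, it was 1.44-fold higher (0.883 ± 0.337 and 1.27 ± 0.165 TPM) with overlapping groups, and with transcript lengths in the edgeR model the log2 fold change was 0.59 and did not pass (adjusted p = 0.175). ROBO2 (chromosome 3, 75906695 to 77649964) had 60.7, 55.1 and 42.8 normalized counts in siCTRL and 26.9, 18.0 and 16.2 in siDNp63. It was the member with the largest fall, with a log2 fold change of −1.40 (SE 0.27, edgeR adjusted p = 0.00532), at a level under 1 TPM in every library. ROBO1, at 26.3 ± 1.35 TPM in siCTRL, had 3123, 3223 and 3362 normalized counts and then 3843, 3516 and 3631. The rise of 0.18 on the log2 scale (edgeR adjusted p = 0.0217) lost its call without siCTRL replicate 1 or 2 or siDNp63 replicate 3 (adjusted p = 0.0756, 0.0682 and 0.0566). It also did so with library totals alone (0.093, edgeR adjusted p = 0.119), with transcript length offsets (0.14, adjusted p = 0.436) and on log2(TPM + 0.1) (0.070, limma adjusted p = 0.737), where the groups overlapped. SLIT1 and SLIT3 did not pass (log2 fold changes 0.15 and −0.24).

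Of the netrin family, the ligand NTN1 fell and the receptors UNC5C, UNC5B and NEO1 rose. NTN1, the netrin-1 gene (chromosome 17, 9021510 to 9244000), had 1117, 1073 and 1051 normalized counts in siCTRL and 488, 671 and 661 in siDNp63. The siDNp63 values were well apart from those of siCTRL, with a log2 fold change of −0.83 (SE 0.12, edgeR adjusted p = 0.00118). NTN1 made up most of the netrin TPM, which stood at 6.86 ± 0.163 in siCTRL and 3.95 ± 0.638 in siDNp63. UNC5C, one of the UNC5 receptors that mediate repulsion by netrin-1 (chromosome 4, 95162504 to 95549206), had 13.9, 6.24 and 18.0 normalized counts in siCTRL and 24.3, 41.1 and 46.7 in siDNp63. Its log2 fold change of 1.56 had a SE of 0.41 (edgeR adjusted p = 0.0206), and the call ended without siCTRL replicate 1 or 2 (adjusted p = 0.0691 and 0.063) or siDNp63 replicate 2 or 3 (0.061 and 0.0779). It also ended with transcript length offsets (1.38, edgeR adjusted p = 0.0976) and in TPM, where the log2 fold change was 0.63 with a pseudocount of 0.1 (limma adjusted p = 0.178) and 0.12 with a pseudocount of 1 (adjusted p = 0.264). UNC5B, the UNC5 receptor of vascular endothelium, had 681, 680.1 and 650.0 normalized counts and then 715, 953 and 913. It rose by 0.36 (edgeR adjusted p = 0.0338), a call that ended without siCTRL replicate 1, 2 or 3 (adjusted p = 0.109, 0.108 and 0.133) or siDNp63 replicate 2 or 3 (0.1 and 0.111). NEO1, also a receptor of repulsive guidance molecules, had 16845, 16643 and 16846 normalized counts in siCTRL and 19297, 18554 and 17859 in siDNp63, a small rise of 0.15 (edgeR adjusted p = 0.0214) that lost its call without siCTRL replicate 2 (adjusted p = 0.0639), with library totals alone (0.060, adjusted p = 0.200), with transcript length offsets (adjusted p = 0.0635) and on log2(TPM + 0.1) (0.089, limma adjusted p = 0.267). DCC and NTN5 were at few counts and did not pass (log2 fold changes −0.25 and −0.51).

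Set side by side as known ligand and receptor pairs, the members did not move as one. EFNB2 rose by 1.32 on the log2 scale, as did its receptor EPHA4 by 1.27, while EPHB4 stood at −0.27, which passed in some of the alternatives but not in the reported fit. SEMA3E and its receptor PLXND1 both rose, by 0.75 and 0.56, but the SEMA3E call ended in 10 of 17 alternatives. SEMA6D fell by 1.12, as did PLXNA1, which it binds, by 0.37, a call that ended in several alternatives. PLXNA4, which binds class 6 semaphorins, rose by 2.21. In counts SEMA7A and its receptor PLXNC1 rose by 0.68 and 0.43, but both calls ended in several alternatives and PLXNC1 reversed on the TPM scale. SEMA4D rose by 0.28, while its receptor PLXNB1 (0.12) did not pass in the reported fit. NTN1 fell by 0.83 while UNC5C, UNC5B and NEO1 rose by 1.56, 0.36 and 0.15, calls that each ended in several alternatives. In counts SLIT2 rose by 1.38 while its receptors ROBO1 and ROBO2 rose by 0.18 and fell by 1.40. Over all members, 8 of 31 tested ligands were higher and 7 lower, and 11 of 26 tested receptors were higher and 6 lower. The shares called were 48.4% and 65.4%, and 33.6% of all genes. No test of the difference between ligands and receptors was made.

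Some further calls depended on the fit. DESeq2 did not call EFNB3 (adjusted p = 0.0879), EPHB2 (0.0759), SEMA3E (0.11), SEMA7A (0.0546) or PLXNC1 (0.0905). With library totals alone the edgeR calls of SEMA3E (adjusted p = 0.0522), PLXNB2 (0.0822), PLXNC1 (0.0863) and UNC5B (0.0937) ended, while EFNA1 (−0.12, adjusted p = 0.0409), EFNA5 (−0.20, 0.0394), EPHA7 (−0.21, 0.0212) and SEMA4G (−0.40, 0.0493) passed as lower. Transcript length offsets ended those of PLXNA1 (−0.23, adjusted p = 0.108), PLXNA3 (−0.29, 0.0876), PLXNC1 (0.05, 0.908), PLXNB3 (−0.42, 0.114), EFNB3 (0.86, 0.0561), SLIT2 (0.59, 0.175) and UNC5B (0.35, 0.0804). Limma on log2(TPM + 0.1) did not call SEMA4D (adjusted p = 0.0717), PLXNA1 (0.0646), PLXNA3 (0.0504), PLXNB3 (0.0739), EFNA2 (0.0652), EFNB3 (0.0754), UNC5B (0.236) or SLIT2 (0.239), and without the filter it did not call ROBO2 (−1.14, 0.0597), SEMA4B (−0.35, 0.0748), SEMA7A (0.66, 0.139), EPHB2 (0.95, 0.0915) or PLXNB2 (0.41, 0.0868) either. Without the filter on counts the edgeR calls of SEMA3E (adjusted p = 0.0595), PLXNA3 (0.0578) and PLXNC1 (0.0754) ended. With a pseudocount of 1 TPM the log2 fold change was 0.80 for SEMA5B, 0.32 for SEMA7A, −0.34 for ROBO2, 0.22 for EPHB2 and 0.20 for EFNB3.

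**Figure D4:**
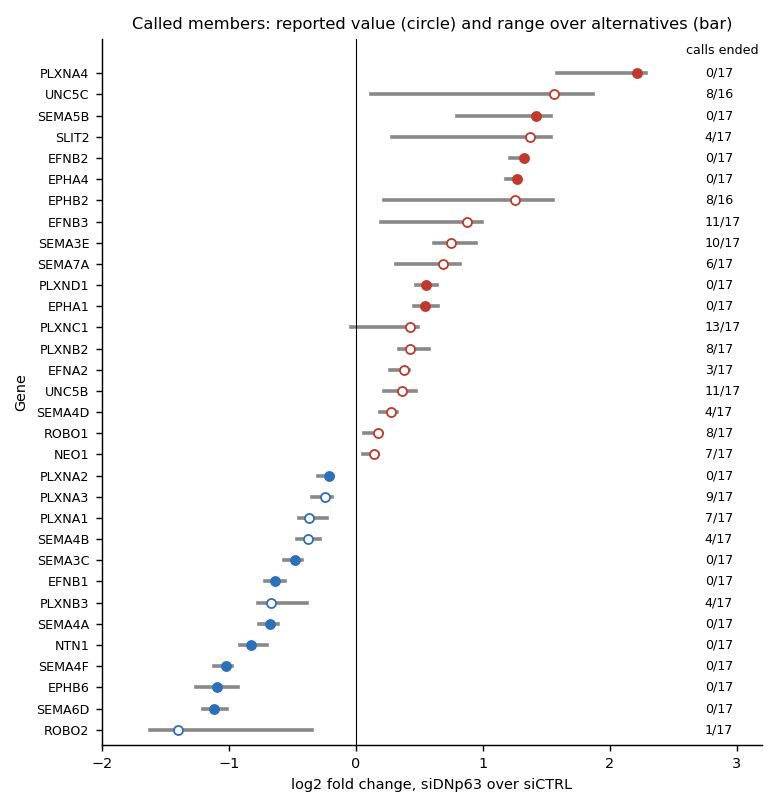
Log2 fold change of the 32 called guidance genes (circle) and its range over the alternative analyses (bar), with the number of alternatives in which the call ended at right; filled circles kept the call in every alternative. Filled circles include PLXNA4, SEMA5B, EFNB2, EPHA4, SEMA6D, SEMA4F, EPHB6 and NTN1, and the bar of PLXNC1 alone crosses 0.

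Of the 77 listed partners of these families (co-receptors, other ligands and intracellular effectors), 69 were tested, and 35 were higher and 9 lower in siDNp63. The list was assembled with results of these data known. These counts are 50.7% and 13.0% of the partners tested, where 18.4% and 15.2% of all genes were higher and lower. Of the 14 tested co-receptors and other ligands, 8 were higher and 0 lower by edgeR's test. The neuropilins, co-receptors of class 3 semaphorins and of vascular endothelial growth factors, were among them. NRP1 had 3818, 3641 and 3859 normalized counts in siCTRL and 9738, 9526 and 9234 in siDNp63 (log2 fold change 1.33, SE 0.04, edgeR adjusted p = 1.42e-06). NRP2 had 3733, 3707 and 3476 and then 10096, 9959.8 and 9716 (log2 fold change 1.45, SE 0.04, edgeR adjusted p = 1.27e-06). The neuropilin groups were far apart, and NRP2 at 146 TPM in siDNp63 was above every member except PLXNB2 and NEO1. FLRT2, a ligand of UNC5 receptors, stood at 1822 ± 43.7 normalized counts in siCTRL and 3740.0 ± 244 in siDNp63 (log2 fold change 1.04, edgeR adjusted p = 9.23e-06). MET, the receptor of hepatocyte growth factor, which associates with B-type plexins, stood at 10449 ± 141 and 21270.3 ± 1640.3 (log2 fold change 1.03, edgeR adjusted p = 1.07e-05).

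The effectors of plexins and semaphorins had 6 higher and 1 lower of 15 tested (46.7% called, and 33.6% of all genes). DPYSL2 and DPYSL5, collapsin response mediator proteins, rose by 0.58 and 0.88 on the log2 scale (edgeR adjusted p = 3.70e-05 and 7.42e-05). MRAS, a Ras-family GTPase, fell by 1.20 (edgeR adjusted p = 0.00138), a call that ended with transcript length offsets (−0.92, adjusted p = 0.0776) and with limma on log2(TPM + 0.1) (−0.88, adjusted p = 0.0822) or log2(TPM + 1) (−0.54, adjusted p = 0.0878). Of the 19 tested effectors and proteases of ephrins and Eph receptors, 11 were higher and 3 lower (73.7% called). CHN1, a Rac GTPase-activating protein that acts downstream of EPHA4, stood at 76.8 ± 4.52 normalized counts in siCTRL and 176 ± 18.6 in siDNp63 (log2 fold change 1.20, edgeR adjusted p = 0.000412). The exchange factor ITSN1 and the Src-family kinase FYN rose by 0.80 and 0.85 (edgeR adjusted p = 7.64e-06 and 1.06e-05).

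Among the 21 effectors of Slit, Robo and netrin signalling, all of them tested, 10 were higher and 5 lower (71.4% called, and 33.6% of all genes). DAPK1, a death-associated kinase linked to UNC5B, had 147, 163 and 173 normalized counts in siCTRL and 774, 705 and 726 in siDNp63, so that the groups were far apart (log2 fold change 2.19, SE 0.09, edgeR adjusted p = 3.86e-06). In TPM the rise was a smaller fold than in counts (2.34 ± 0.557 in siCTRL and 6.85 ± 0.365 in siDNp63). The actin-binding LIM proteins ABLIM3 and ABLIM1 rose by 2.14 and 0.80 (edgeR adjusted p = 0.000113 and 7.89e-06). ABLIM3 was low in siCTRL, at 28.7 ± 4.65 normalized counts and 0.356 ± 0.113 TPM. SRGAP3, a GTPase-activating protein that binds Robo receptors, had 829, 849 and 772 normalized counts and then 267, 285 and 341. It fell by 1.45 on the log2 scale (SE 0.10, edgeR adjusted p = 3.70e-05), as ROBO2 did by 1.40.

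**Figure D5:**
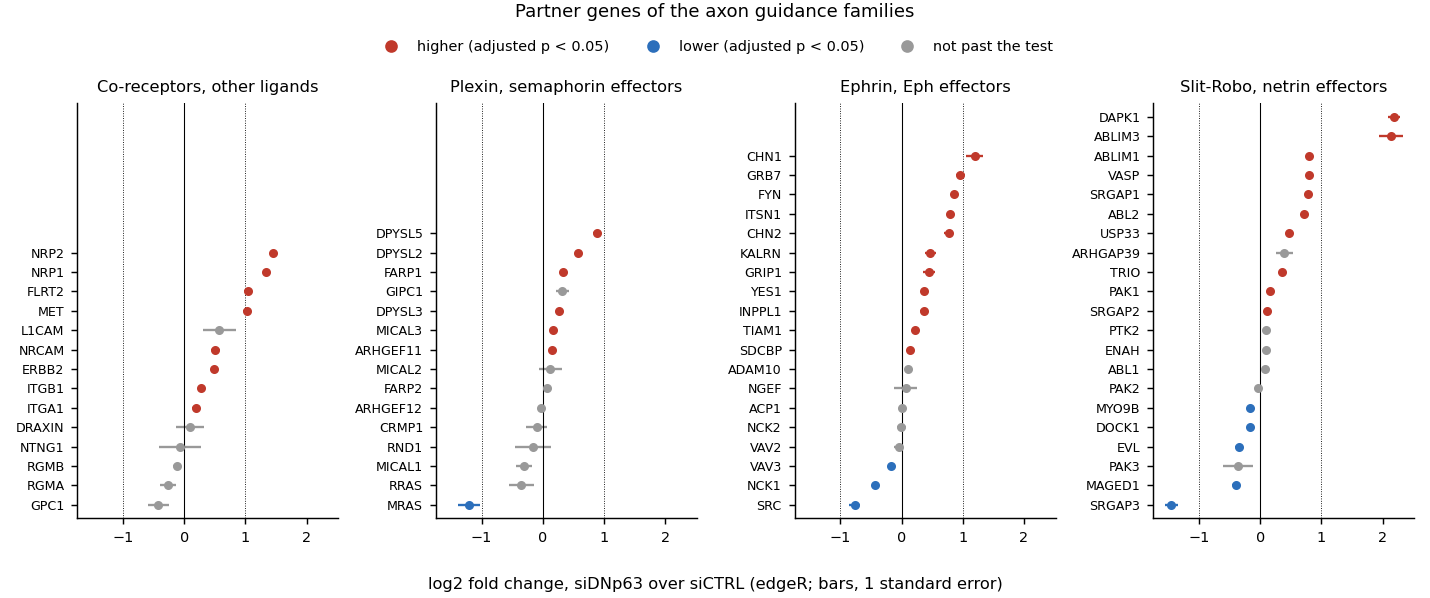
Log2 fold change of the 69 tested partners in their 4 groups, siDNp63 over siCTRL, with bars of 1 standard error; colours mark an adjusted p under 0.05 and dotted lines an absolute value of 1. Points on the right outnumber those on the left in each group (35 higher and 9 lower in all), with DAPK1, ABLIM3, NRP2 and NRP1 farthest to the right.

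Several members are also known from blood vessels (EFNB2, EPHB4, PLXND1, UNC5B and, among the partners, NRP1 and NRP2). All of these except EPHB4 were called higher in siDNp63, where 18.4% of all tested genes were, but the group was put together with the results known. The UNC5B call ended in 11 of 17 alternatives, and EPHB4 stood at −0.27 and was not called in the reported fit. ROBO4, also of vascular endothelium, had 0 counts in every library. Some markers of endothelium rose as well. Of the 5 endothelial markers, KDR, PECAM1 and VWF rose, and the summed level of all 5 was 2.56 to 3.06 TPM in siCTRL and 11.2 to 13.7 TPM in siDNp63. The defining markers CDH5 and TEK were too low to be tested, at 0.0657 and 0.0554 TPM in siCTRL and 0.0272 and 0.113 TPM in siDNp63, and EFNB2 alone stood at 61.8 TPM. The summed level of 7 fibroblast markers was 8.72 to 10.8 TPM in siCTRL and 5.82 to 9.11 TPM in siDNp63, with 4 of the 7 under 1 TPM in every library and PDGFRB at 0 in all 6. That of 5 leukocyte markers was 10.3 to 12.3 and 9.68 to 11.6 TPM, with 2 of the 5 under 1 TPM. The summed squamous markers, TP63 included, were at 4421 to 4477 TPM in siCTRL and 5140.4 to 5425 TPM in siDNp63, with KRT14, KRT6A, KRT17, EPCAM and CDH1 higher. TP63 went the other way, with a log2 fold change of −1.52, and KRT6A made up most of the siCTRL sum. The part of these shifts in the results above was not tested.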

How the data were processed

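RNA was sequenced as stranded, poly(A)-selected, single-end libraries from SCC90 cells in 2 groups of 3. According to the submitters' processing notes, bcl2fastq 2.17.1.14 and kallisto 0.46.2 were used with the hg38 build. Which annotation release they used was not given in the sources used here. Deposited expected counts are the authors' kallisto estimates per Ensembl gene, unscaled, and the deposited TPM are their length-normalized abundances. kallisto shares reads among similar transcripts by estimate, so genes with near-identical copies are uncertain. All 12 columns were used.

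Of the 40488 identifiers, 35538 were matched to a gene name table. Coordinates are from the GENCODE annotation of GRCh38, and promoters from RefSeq. Expected counts were rounded, filtered (filterByExpr, minimum count 10, 17257 genes left) and scaled (TMM, trimmed mean of M values), and groups were compared with edgeR 4.0.16 in R 4.3.3 (glmQLFit, glmQLFTest, group as the only term, Benjamini-Hochberg over all genes). The standard error (SE) is the absolute log2 fold change divided by the square root of F. The test was checked on simulated counts. Library totals set the precision of low genes, and the limit given for ROBO4 covers counting error only.

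Members with an adjusted p under 0.05, an absolute log2 fold change over 0.5 and a mean of at least 10 normalized counts in a group were described by library, and the others by their log2 fold change. Partners were named when past an absolute log2 fold change of 1 or among the smallest p of their group. A further scanned motif is not reported here. Members, lists and motifs were chosen with earlier results of these data known. Alternatives were DESeq2 1.42.0, limma-voom and limma on TPM (limma 3.58.1, pseudocounts 0.1 and 1), other scalings and filters, transcript length offsets, a replicate block, stricter thresholds and leaving out each library. Same-numbered libraries did not deviate together, so the block is not part of the reported fit.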

Additional observations from a re-analysis of the deposited data

How the results depend on the processing

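The TP63 log2 fold change kept its call in every alternative (−1.61 to −1.49). Of the 32 members called, 14 kept the call in all 17 alternative fits, among them 12 of the 20 described by library. The reported 19 higher and 13 lower members became 14 and 14 with DESeq2 (which gave no adjusted p for NTN5, EPHB1, SEMA6B and SLIT3), 12 and 10 with transcript length offsets, 10 and 10 on log2(TPM + 0.1), 9 and 10 on log2(TPM + 1), 7 and 8 on log2(TPM + 0.1) without the filter, 7 and 7 at an adjusted p under 0.005, and 7 and 4 with an absolute log2 fold change over 1. Leaving out 1 library gave 9 to 19 higher and 10 to 15 lower. The labels number the replicates but nothing says that the numbers pair them. Same-numbered libraries correlated at −0.01, 0.02 and 0.03 in their deviations from the group means. No shared deviation was visible, which cannot show that the libraries were not handled in pairs. With the replicate block 12 members were higher and 14 lower. The PLXNC1 log2 fold change reversed on the TPM scale, at −0.0395 (log2(TPM + 0.1)), −0.00827 (log2(TPM + 1)) and −0.0395 (no filter), and the cause was not tested. The reported 35 higher and 9 lower partners became 27 and 5 with length offsets, 23 and 5 on log2(TPM + 0.1) without the filter, 30 and 7 with the block, 7 and 2 with the fold threshold, and 29 to 35 and 7 to 11 without 1 library. Calls ended without single libraries both among members with few counts (UNC5C, EPHB2, EFNB3, SEMA3E, SEMA7A) and among abundant ones (PLXNB2, PLXNA1), while SEMA5B and ROBO2 kept theirs. The low-count filter left 11 members untested.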
